A study of Mus musculus with 45 samples.

Results

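The genes of the mouse major histocompatibility complex (MHC) that present peptides to T cells were followed on 45 expression arrays of epididymal fat, liver and skeletal muscle. The set comprised every probe set annotated to a single one of 10 symbols: the class I heavy chains H2-Q1, H2-K1, H2-D1, H2-T23 and H2-M3, the class I light chain B2m, the class II chains H2-Aa, H2-Ab1 and H2-Eb1, and the class II invariant chain Cd74. These were 14 probe sets of 9 genes, among 10833 probe sets with a single gene symbol (8251 genes), and no filter on low values was applied, so that all 14 were tested. H2-T23 had no probe set of its own and was read only by sets shared with other genes. H2-Q1 was chosen from its values in the livers of B6 mice on the 2 diets. The difference between the strains in this liver diet effect was also known. The other genes were added as its family with earlier results of these arrays known.

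The arrays carried total RNA of C57Bl/6 (B6) or 129S6/SvEvTac (129S6) mice aged 6 months, both inbred strains with no transgene in the labels, on a high-fat (HF) or a low-fat (LF) diet. Fat was measured on 4 arrays of B6 HF, 4 of B6 LF, 3 of 129S6 HF and 3 of 129S6 LF. Liver had 4 arrays in each group, and muscle had 4 arrays in each group except B6 LF, which had 3. Each array held RNA pooled from 2 to 3 mice, so that p-values measure the spread between pools, and the series' design text describes only 1 of the diets.

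Class I molecules carry peptides made by the proteasome in the cytosol. The peptides are moved into the endoplasmic reticulum by the transporter TAP and loaded onto a heavy chain bound to beta-2 microglobulin, the product of B2m, for display to CD8 T cells on nearly every nucleated cell. H2-K1 and H2-D1 encode the classical class I heavy chains of these strains, whereas H2-Q1, H2-T23 (the Qa-1 antigen) and H2-M3 (which presents formylated bacterial peptides) are non-classical. Class II molecules are made mainly by macrophages, dendritic cells and B cells and show peptides from endosomes to CD4 T cells: H2-Aa and H2-Ab1 form I-A, H2-Eb1 is the beta chain of I-E, and Cd74 guards the groove until cathepsins remove it. Both strains carry classical genes of the b type, in which the I-E alpha gene H2-Ea is silent. Its probe set lay between 3.89 and 5.57 on all 45 arrays, on the log2 scale of all values given here, with a median of 4.68.

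All the genes but B2m and Cd74 lie in the MHC on chromosome 17. In GRCm38.p6, H2-K1 spans 33996012 to 34000619, H2-Ab1 34263227 to 34269418, H2-Aa 34282744 to 34287823, H2-Eb1 34305867 to 34316674, H2-D1 35263094 to 35267497, H2-Q1 35320525 to 35328142 and H2-M3 37270234 to 37274485. B2m lies on chromosome 2, from 122147687 to 122153082. RefSeq promoters of that build, 250 bases before to 50 bases after a start, were used for 7 of the 10 genes. H2-Q1 and H2-Ab1 were not matched and Cd74 was not used. Those of H2-K1 and H2-D1 are printed because the brightest probe sets of these genes moved together across the arrays, that of B2m for the shared light chain and that of H2-Aa for class II. Capitals mark matches, on either strand, to GGGGATTCC (a kappa B element of class I genes), TTTCACTTC (an interferon response element of class I genes), GAAANNGAA (a looser interferon element), TGACGTCA (the core of a cyclic AMP response element, as in the X2 box of class II genes) and CCAAT (as in the Y box). Positions count from the start, and the strand printed is that of the gene.
H2-K1 (chr17:34000298-34000597, minus strand): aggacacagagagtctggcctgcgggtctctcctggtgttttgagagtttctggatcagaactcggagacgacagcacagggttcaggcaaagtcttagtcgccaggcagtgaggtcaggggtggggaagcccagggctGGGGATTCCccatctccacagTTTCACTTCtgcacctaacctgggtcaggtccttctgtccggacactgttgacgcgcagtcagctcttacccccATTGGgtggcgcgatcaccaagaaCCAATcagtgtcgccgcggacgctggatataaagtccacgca
H2-D1 (chr17:35262844-35263143, plus strand): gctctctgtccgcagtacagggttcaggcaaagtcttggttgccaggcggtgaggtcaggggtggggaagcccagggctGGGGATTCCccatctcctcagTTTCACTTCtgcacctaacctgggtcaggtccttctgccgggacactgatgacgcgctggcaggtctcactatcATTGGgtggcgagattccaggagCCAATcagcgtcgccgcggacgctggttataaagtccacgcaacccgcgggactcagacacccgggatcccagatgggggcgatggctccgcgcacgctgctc
B2m (chr2:122147437-122147736, plus strand): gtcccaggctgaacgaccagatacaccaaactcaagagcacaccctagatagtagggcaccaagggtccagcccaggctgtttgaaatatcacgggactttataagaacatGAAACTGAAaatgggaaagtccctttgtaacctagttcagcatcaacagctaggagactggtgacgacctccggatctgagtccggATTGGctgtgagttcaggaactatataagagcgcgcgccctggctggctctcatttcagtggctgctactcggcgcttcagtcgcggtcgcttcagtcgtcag
H2-Aa (chr17:34287774-34288073, minus strand): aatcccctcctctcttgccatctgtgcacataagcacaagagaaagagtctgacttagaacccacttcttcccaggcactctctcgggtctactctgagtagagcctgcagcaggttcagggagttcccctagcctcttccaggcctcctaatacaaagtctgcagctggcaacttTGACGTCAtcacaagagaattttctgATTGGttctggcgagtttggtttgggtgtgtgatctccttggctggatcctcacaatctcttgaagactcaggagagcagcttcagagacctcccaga

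The H2-K1 and H2-D1 promoters both held GGGGATTCC and TTTCACTTC with their first letters 21 bases apart, at positions -111 and -90 from the start in H2-K1 and -171 and -150 in H2-D1. The positions are not counted from like starts. The H2-K1 promoter, 1 of 2 entries of this gene, lies wholly inside the gene's span, while that of H2-D1 is set on the start of its gene. Of 32851 promoters of this length, 0.25% held GGGGATTCC and 0.505% held TTTCACTTC. The longest run of letters shared by these promoters was 47 bases, against 7 to 12 bases for all other pairs of the 7. The H2-M3 promoter held TTTCACTTC, and those of B2m and H2-T23 held GAAANNGAA, which 8.56% of all promoters held. TGACGTCA stood at position -74 in H2-Aa and in 1.79% of all promoters, and CCAAT, which was found in 37.4% of all promoters, stood in all 7 used here. No matches overlapped in the printed promoters. A match describes the letters only.

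The tissue labels held up against marker genes. Liver markers averaged 11.64 to 12.57 on liver arrays and at most 9.38 elsewhere, muscle markers 9.66 to 10.71 on muscle arrays and at most 6.47 elsewhere, and adipocyte markers 10.69 to 11.42 on fat arrays and at most 8.81 elsewhere. A few arrays stood apart before any comparison. In fat, Gapdh, a glycolytic gene probed at both ends of its transcript, had a 3′ signal 6.03 above its 5′ signal on B6 HF replicate 7, 5.81 on 129S6 HF replicate 12 and 5.93 on 129S6 HF replicate 13. A wide gap of this kind marks shortened RNA or cRNA. The gap was 2.36 on B6 HF replicate 8 and between -0.06 and 0.41 on the other fat arrays. In muscle, all 4 B6 HF arrays and 129S6 LF replicate 9 had a narrow spread of values over the array (SD 1.57 to 1.70), against 1.80 to 1.88 on the other 10. In liver, B6 HF replicate 13 had the highest macrophage markers of its tissue, and its markers of muscle were also high. All 4 liver B6 LF arrays were numbered apart from the other liver arrays and directly after those of muscle, so that this run of numbers and the group cannot be told apart. Results that rest on these arrays are given with and without them. Within muscle this is not possible for the B6 HF group, which holds none but narrow arrays. Between tissues, the fits without the arrays that stand apart left out that whole group. Muscle was then averaged over its other groups, while fat and liver kept all of theirs. Those fits also left out liver 129S6 LF replicate 11 and muscle 129S6 HF replicate 1, with Gapdh gaps of 3.26 and 4.43. In bulk tissue, fewer cells of a type and less RNA per cell cannot be told apart.

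H2-K1, H2-D1 and B2m were higher in fat and liver than in muscle on 6 probe sets, whereas H2-M3 was lower there and H2-K1 97700_at did not pass. H2-K1 (probe set 93120_f_at) had a median of 12.20 in fat (11.76 to 12.72 over 14 arrays), 11.98 in liver (11.41 to 12.65 over 16 arrays) and 9.74 in muscle (7.58 to 10.46 over 15 arrays). No muscle array reached the lowest array of fat or liver. B2m lay at a median of 12.30 in fat (11.78 to 12.85), 11.94 in liver (11.51 to 12.44) and 10.05 in muscle (9.42 to 10.94), again with muscle apart. Averaged over the 4 groups of each tissue, H2-K1 was 2.60 ± 0.18 (SE) higher in fat than in muscle and 2.41 ± 0.17 higher in liver than in muscle. B2m was 2.11 ± 0.10 higher in fat than in muscle and 1.77 ± 0.09 higher in liver than in muscle. The adjusted p-values of these 4 differences were at most 5.27e-15 (limma, Benjamini-Hochberg over 10833 probe sets). Without the arrays that stand apart, a choice added after the data were seen, H2-K1 was 2.14 higher in fat and 1.94 higher in liver than in muscle, and B2m 2.10 and 1.72 higher. Between fat and liver the H2-K1 difference was 0.19 ± 0.18 (adjusted p = 0.376), while B2m was 0.35 ± 0.09 higher in fat (adjusted p = 0.0021). Over the LF groups alone, also chosen after the data were seen, that B2m difference was 0.14 (adjusted p = 0.406).

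Class II transcripts were higher in fat than in liver or muscle. H2-Aa had a median of 10.54 in fat (8.33 to 11.76), 8.47 in liver (7.21 to 11.33) and 8.19 in muscle (6.70 to 8.64). Cd74 had a median of 11.63 in fat (9.45 to 12.72), 9.71 in liver (8.51 to 12.51) and 8.90 in muscle (6.81 to 10.03). The ranges overlapped through single arrays, the lowest of fat being B6 HF replicate 7 and 129S6 HF replicate 13 and the highest of liver B6 HF replicate 13. H2-Ab1 had medians of 9.47, 7.82 and 7.59 in fat, liver and muscle, and H2-Eb1 had medians of 10.01, 8.10 and 7.82. Fat was higher than liver by 1.81 ± 0.27 for H2-Aa, 1.63 ± 0.15 for H2-Ab1, 1.51 ± 0.19 for H2-Eb1 and 1.68 ± 0.28 for Cd74, and all 4 passed the test. Without the arrays that stand apart these differences were 2.44, 1.93, 2.00 and 2.23. Markers of cells that make class II were read beside them. Of 25 macrophage probe sets 15 were higher and 3 lower in fat than in liver, and the list averaged 6.53 to 7.69 in fat, 6.11 to 7.26 in liver and 5.93 to 6.72 in muscle. The B cell list averaged 5.44 to 6.39 in fat, 5.33 to 5.64 in liver and 5.57 to 5.87 in muscle. The dendritic cell list averaged 5.20 to 5.59 in fat, 5.14 to 5.42 in liver and 5.16 to 5.79 in muscle, so that its highest value was in muscle. The part of these cells in the class II differences was not tested.

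Of the 14 probe sets, 5 were higher and 2 lower in fat than in liver (55.5% of all probe sets were called), 10 were higher and 2 lower in fat than in muscle (70.8%), and 9 were higher and 2 lower in liver than in muscle (66.5%). The median difference of the 14 was 0.22 for fat minus liver, 2.01 for fat minus muscle and 1.00 for liver minus muscle, against -0.02, -0.09 and -0.12 over all probe sets. The lower sets were those of H2-M3, whose set 102731_g_at gave -0.38 for fat minus muscle and -0.38 for liver minus muscle, and H2-Q1 in fat against liver. H2-Q1 was also 1 of the 9 sets higher in liver than in muscle (0.84). In both comparisons the liver mean contains the arrays H2-Q1 was chosen on, so nothing is read from these calls of H2-Q1. Class II in liver against muscle moved with the arrays kept. Cd74 was 1.16 higher in liver (adjusted p = 0.000378) and H2-Eb1 0.43 higher (adjusted p = 0.0386). Without the arrays that stand apart they were 0.30 and 0.17 higher (adjusted p = 0.0442 and 0.0419), and over the LF groups alone, with fewer arrays, 0.33 and 0.07 higher (adjusted p = 0.402 and 0.501). H2-Aa and H2-Ab1 did not pass (0.55 and 0.31, adjusted p = 0.0606 and 0.0624). No run of array numbers defined here held arrays of more than 1 tissue, so that tissue and run cannot be told apart, although the numbers of the B6 LF livers follow directly on those of muscle.

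**Figure D1:**
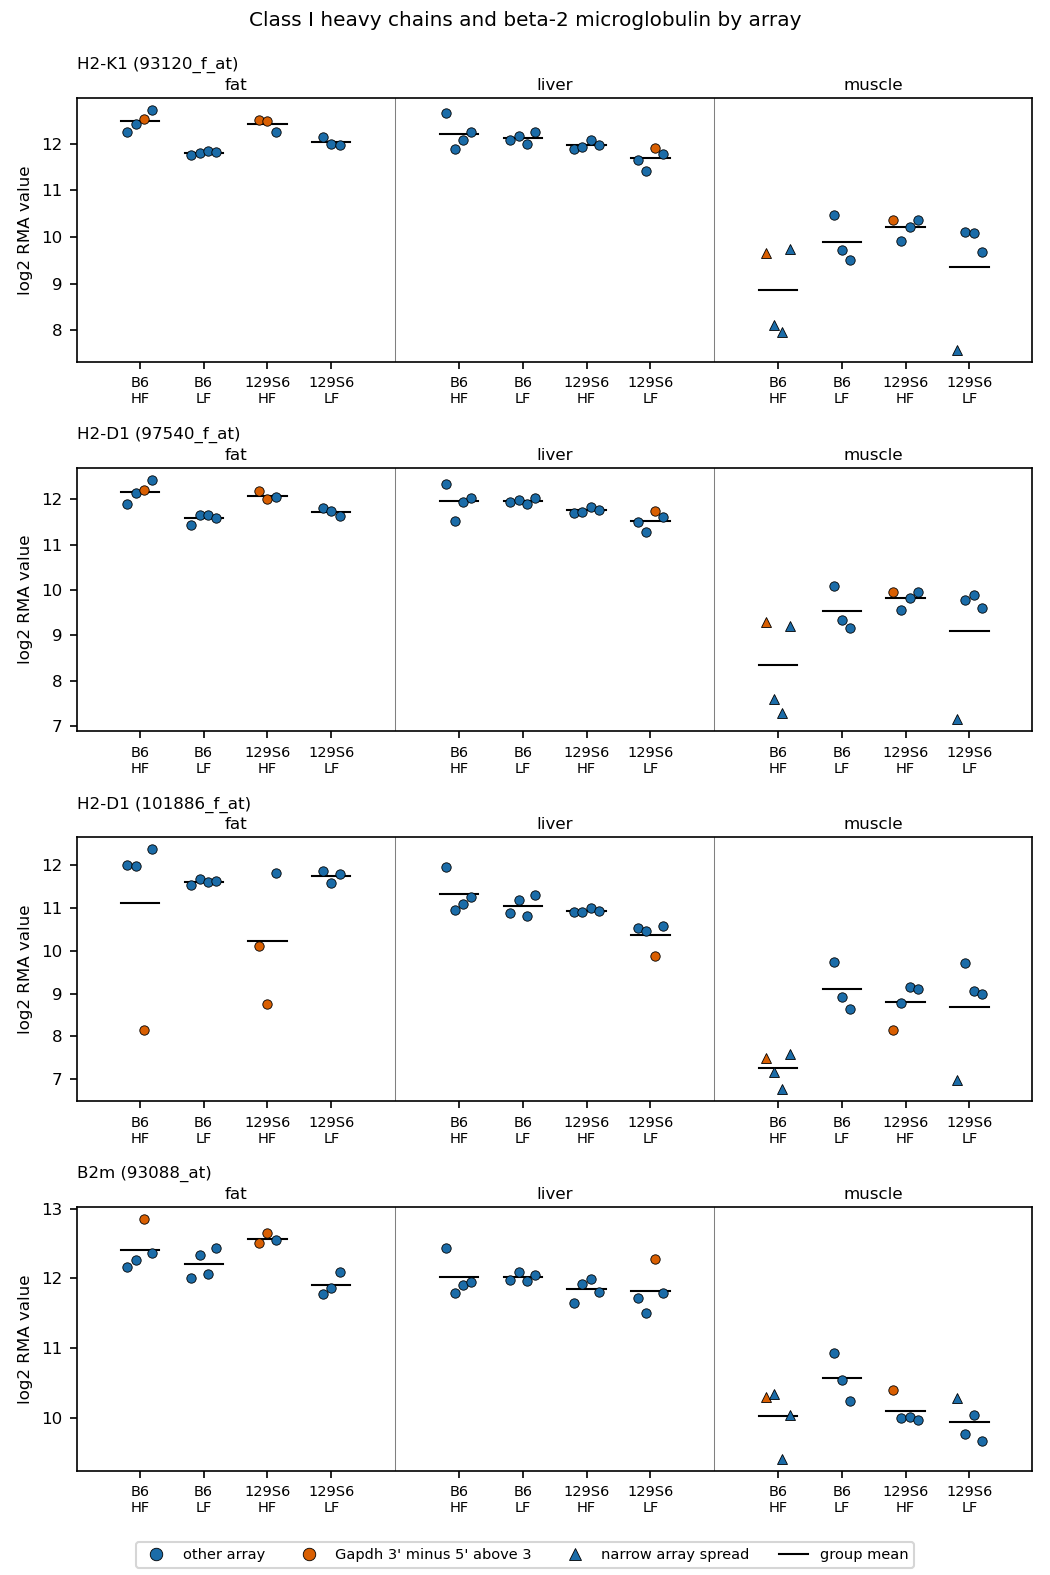
Log2 values of H2-K1 (93120_f_at), H2-D1 (97540_f_at and 101886_f_at) and B2m on each array, 1 point per array and 1 line per group mean, in columns for fat, liver and muscle and within each for B6 HF, B6 LF, 129S6 HF and 129S6 LF. Orange points are arrays whose Gapdh 3′ signal exceeds the 5′ signal by more than 3 and triangles are the 5 muscle arrays of narrow spread. H2-K1 (93120_f_at) and B2m lie lower on every muscle array than on any fat or liver array.

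H2-Q1, a non-classical class I gene of the Q region, stood out in 1 group of 12. Its probe set 92222_f_at, whose suffix marks probes that can bind family members, read 7.01, 7.05, 7.31 and 7.34 in livers of B6 HF mice, against 5.76, 5.45, 5.30 and 5.51 in livers of B6 LF mice. It read 5.20, 4.99, 4.89 and 5.04 in 129S6 HF livers and 5.16, 5.25, 5.10 and 4.97 in 129S6 LF livers. All 41 arrays outside the B6 HF livers lay between 4.37 and 5.76, below the lowest of those 4. These are the values for which the gene was chosen, so they are described without a test: the diet difference was 1.67 ± 0.11 (SE) in B6 livers, a 3.19-fold higher signal, and the strain difference on the HF diet was 2.15. The diet difference in B6 livers exceeded that in 129S6 livers by 1.76 ± 0.16. Another set that includes H2-Q1 among 5 symbols (95773_at) averaged 4.25 in B6 HF livers and 4.48 in B6 LF livers. Across the 45 arrays, after each tissue's mean was subtracted, its Pearson correlation with the other 13 probe sets ran from -0.09 to 0.47. The genes most like it over the same arrays were Col4a1 (r = 0.71), a basement membrane collagen, Elovl6 (0.71), a fatty acid elongase, Orm2 (0.69), an acute phase protein, Cyp2b9 (0.68), a cytochrome P450, and Ly6d (0.67). These values contain the 4 B6 HF livers for which H2-Q1 was chosen, and arrays of 1 group share their diet and strain, so they only describe that choice.

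In 129S6 livers the H2-Q1 diet difference was -0.09 ± 0.11. It is given without a test, since these livers enter the difference between the strains' diet effects, which was known at the choice. In muscle and fat, not used for the choice, the signal could be tested (limma). In muscle the probe set read 5.14, 5.49, 4.97 and 5.03 in B6 HF mice, against 4.58, 4.76 and 4.87 in B6 LF mice. These groups did not overlap, but the difference of 0.42 ± 0.15 missed the threshold (adjusted p = 0.0528), and it passed without 129S6 LF replicate 9 (adjusted p = 0.0259). The B6 HF muscle arrays are those of narrow spread, and the part of the spread in this difference was not tested. In fat it read 4.59, 4.74, 5.23 and 4.70 in B6 HF mice, against 4.82, 4.48, 4.52 and 4.37 in B6 LF mice (difference 0.27, adjusted p = 0.41), with overlapping groups.

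**Figure D2:**
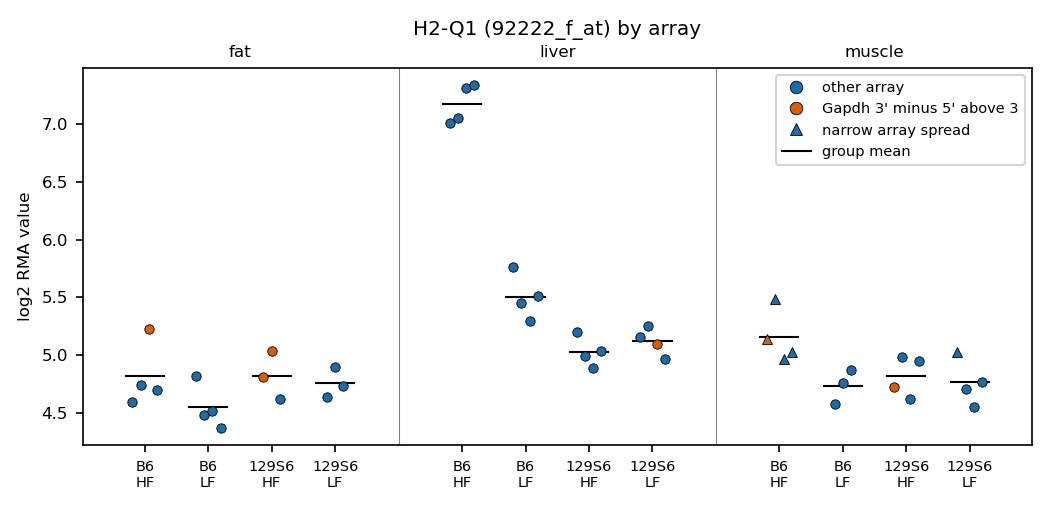
Log2 value of the H2-Q1 probe set (92222_f_at) on each of the 45 arrays, by tissue and within each tissue by strain and diet, with a line at each group mean. The 4 livers of B6 HF mice lie between 7.01 and 7.34 and all other arrays between 4.37 and 5.76.

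In liver, several sets of the classical heavy chains were called higher in B6 than in 129S6 mice on the LF diet, but not under every setting. H2-K1 (93120_f_at) read 12.65, 11.88, 12.08 and 12.25 in B6 HF livers and 12.07, 12.16, 11.99 and 12.25 in B6 LF livers. It read 11.88, 11.93, 12.08 and 11.97 in 129S6 HF livers and 11.65, 11.41, 11.91 and 11.78 in 129S6 LF livers, so that every B6 LF array lay above every 129S6 LF array. H2-D1 (101886_f_at) read 10.89, 11.20, 10.81 and 11.30 in B6 LF livers, against 10.53, 10.47, 9.89 and 10.57 in 129S6 LF livers. On the LF diet, H2-D1 was higher in B6 than in 129S6 livers by 0.68 ± 0.19 on 101886_f_at (adjusted p = 0.0267) and by 0.44 ± 0.13 on 97540_f_at (adjusted p = 0.0408). H2-K1 was higher by 0.53 ± 0.15 on 97125_f_at (adjusted p = 0.0293), and missed the threshold on 93120_f_at (0.43, adjusted p = 0.0514). The calls on 97125_f_at, 101886_f_at and 97540_f_at were all lost under quantile normalization, with only the groups compared and with array spread as a covariate. Over the alternatives the differences fell as low as 0.12 on 97125_f_at, 0.44 on 101886_f_at and 0.13 on 97540_f_at. The dim set 97700_at of H2-K1 was at a median of 6.13 in both fat and liver and 6.25 in muscle, and did not follow the other sets of this gene.

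On the LF diet, 4 of the 14 probe sets were thus higher in B6 than in 129S6 livers and none was lower (12.0% of all probe sets were called). H2-Q1 is 1 of the 4, and nothing is read from its call, since its B6 LF livers are among the values it was chosen on. The median difference of the 14 was 0.43, against -0.04 over all probe sets. Without B6 HF replicate 13, which enters only through the shared estimate of the spread, 8 sets were called, H2-Aa (0.82 ± 0.18, adjusted p = 0.00903), H2-Ab1 (0.44, adjusted p = 0.0419) and Cd74 (0.86 ± 0.20, adjusted p = 0.012) among them. Without B6 LF replicate 2, or without replicate 4, none was called. Calls over all 10833 probe sets ran from 654 to 2342 as single arrays were left out. The macrophage list averaged 6.40 to 6.47 in B6 LF livers and 6.11 to 6.18 in 129S6 LF livers, without overlap, and its part in these differences was not tested. The B6 LF livers were the arrays numbered apart, with an array spread of 1.91 to 1.98 against 1.81 to 1.90 on the other liver arrays. On the HF diet, only H2-Q1 was called between the strains, as the choice of the gene fixes (4.24% of all probe sets). An unadjusted p under 0.05 was held by 3 of the 14 (1936 of all 10833 probe sets).

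For diet in liver, few members passed. In 129S6 livers 0 of the 14 passed between the diets (0.111% of all probe sets), with the smallest adjusted p at 0.63. There, 2 of the 14 had an unadjusted p under 0.05 (655 of all 10833 probe sets). In B6 livers H2-Q1 and H2-K1 97700_at (0.29) stood past the threshold (16.2% of all probe sets), and in the difference between the diet effects of the strains H2-Q1 alone (4.56%), from which nothing is read since H2-Q1 was chosen there. Class II values in B6 HF livers hung on 1 array. H2-Aa read 11.33, 8.60, 8.49 and 8.52 on replicates 13 to 16, against 8.50, 8.45, 8.69 and 8.52 in B6 LF livers. Cd74 read 12.51, 9.87, 9.75 and 10.01 there, against 9.67, 9.76, 9.96 and 10.08 in B6 LF livers. Replicate 13 stood well above all other livers for H2-Aa, H2-Ab1 (10.07), H2-Eb1 (10.43) and Cd74. Its macrophage list averaged 7.26, against 6.42 to 6.50 in the other 3 pools of its group. The macrophage gene Lyz2 (lysozyme) read 9.82 there against 6.78 to 7.18, and Adgre1 (a surface antigen of macrophages) 8.40 against 7.23 to 7.33. Its B cell list, at 5.45, was within the 5.45 to 5.49 of the other 3, and its skeletal muscle list averaged 6.21, against 5.47 to 5.81. Its T and NK cell list averaged 5.31, against 5.02 to 5.07 in the other 3. Without this array the diet difference in B6 livers was 0.00 ± 0.20 for H2-Aa and 0.01 ± 0.22 for Cd74.

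**Figure D3:**
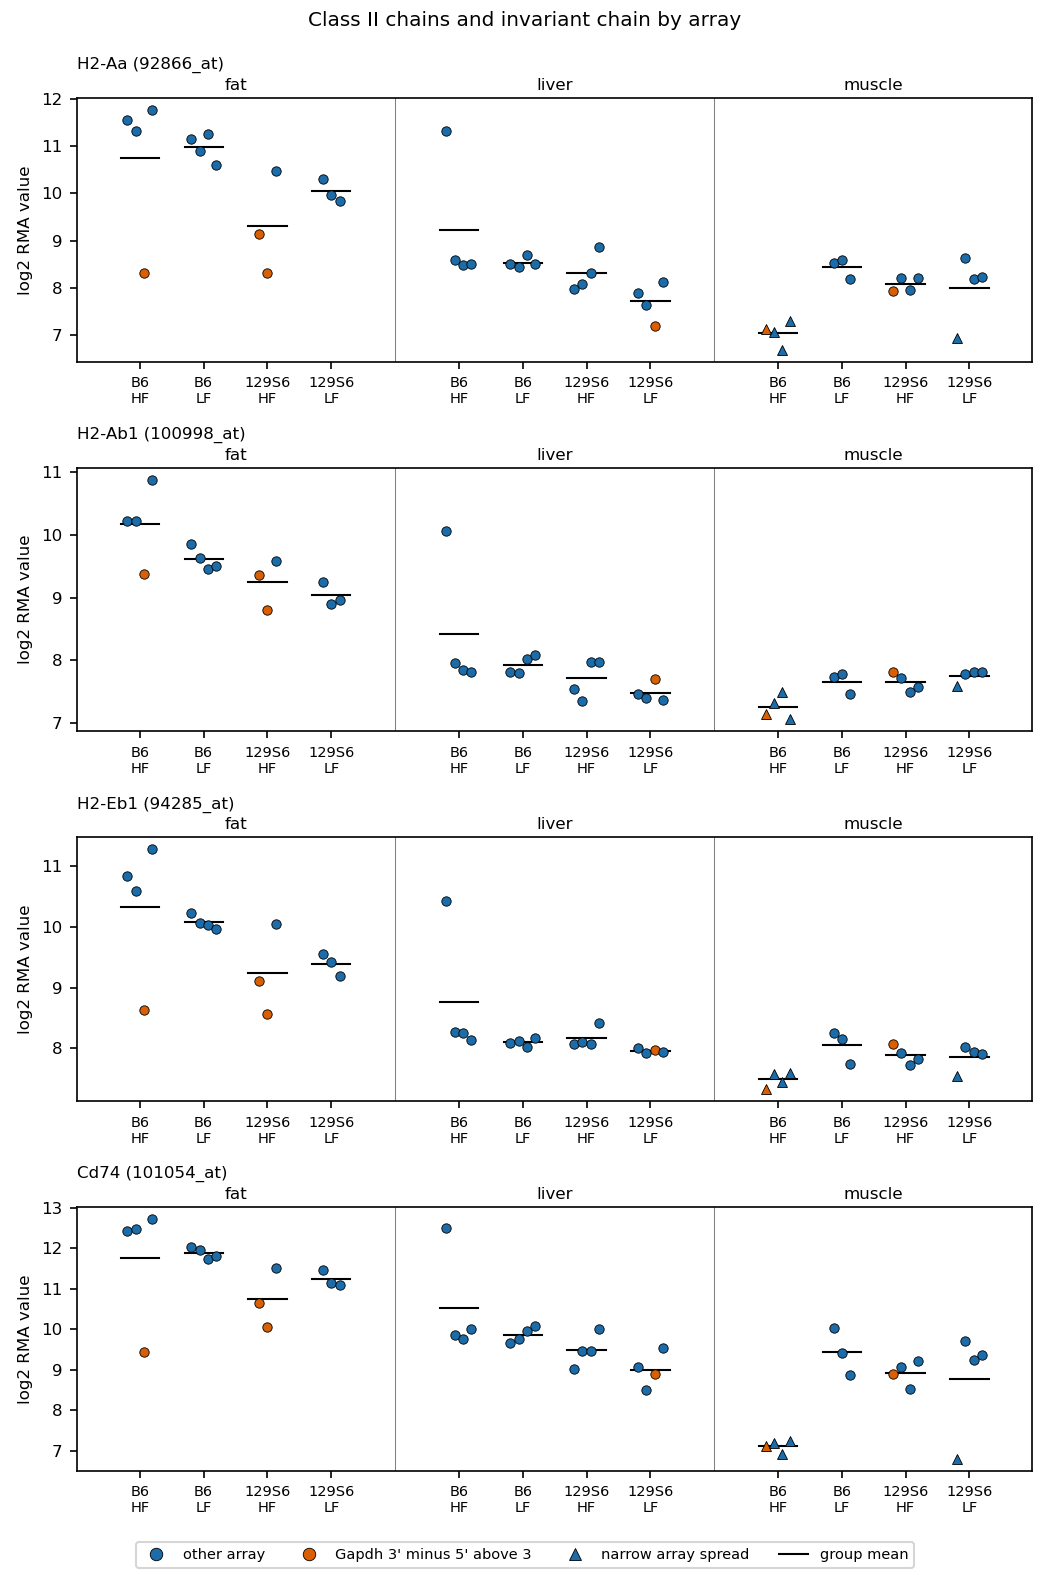
Log2 values of H2-Aa, H2-Ab1, H2-Eb1 and Cd74 on each array, laid out by tissue, strain and diet with a line at each group mean. Orange points are arrays with a Gapdh 3′ to 5′ gap above 3 and triangles are the 5 muscle arrays of narrow spread. Liver B6 HF replicate 13 lies above all other livers, and fat B6 HF replicate 7 lies far below the other 3 arrays of its group for H2-Aa and Cd74.

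In fat, H2-K1 arrays of the HF diet lay above those of the LF diet in both strains, and the difference passed the test in B6. H2-K1 (93120_f_at) read 12.26, 12.42, 12.53 and 12.72 in B6 HF fat, against 11.76, 11.81, 11.84 and 11.82 in B6 LF fat. It read 12.50, 12.49 and 12.26 in 129S6 HF fat, against 12.15, 12.00 and 11.98 in 129S6 LF fat. HF and LF arrays did not overlap in either strain. In B6 fat H2-K1 rose on the HF diet by 0.68 ± 0.11 (95% confidence interval 0.44 to 0.91, adjusted p = 0.0262). In 129S6 fat the difference was 0.37 (adjusted p = 0.239). H2-D1 on 97540_f_at read 11.90, 12.13, 12.21 and 12.43 in B6 HF fat, against 11.44, 11.65, 11.65 and 11.58 in B6 LF fat, which again did not overlap (0.59, adjusted p = 0.063). H2-K1 on 97125_f_at was 0.57 higher (adjusted p = 0.0843). The H2-K1 call was lost when any of 8 single arrays was left out (adjusted p up to 0.118) and under 4 other settings (adjusted p up to 0.157), with the difference at 0.58 to 0.75 throughout.

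H2-K1 93120_f_at was the only 1 of the 14 called for diet in B6 fat (0.185% of all probe sets). There, 6 of the 14 had an unadjusted p under 0.05 (1537 of all 10833), and the median was 0.24, against -0.03 over all probe sets. In 129S6 fat 0 of the 14 were called for diet (0.572%), although 6 had an unadjusted p under 0.05 (1503 of all 10833). B2m came nearest there. It read 12.51, 12.65 and 12.55 in 129S6 HF fat, against 11.78, 11.86 and 12.09 in 129S6 LF fat, without overlap (0.66 ± 0.18, adjusted p = 0.142). In B6 fat B2m read 12.17, 12.26, 12.85 and 12.36 on the HF diet, against 12.00, 12.34, 12.07 and 12.44 on the LF diet, with overlap. The difference between the diet effects of the strains gave 0 calls (0% of all probe sets) and no member with an unadjusted p under 0.05. An unlike diet effect in the strains was therefore not shown, nor a like one.

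The class II genes in fat were read differently by arrays with and without the wide Gapdh gap. Cd74 read 12.42, 12.47, 9.45 and 12.72 in B6 HF fat, against 12.02, 11.95, 11.74 and 11.82 in B6 LF fat. It read 10.65, 10.05 and 11.52 in 129S6 HF fat, against 11.46, 11.15 and 11.09 in 129S6 LF fat. H2-Aa read 11.56, 11.31, 8.33 and 11.76 in B6 HF fat, against 11.15, 10.90, 11.25 and 10.61 in B6 LF fat. The low values were B6 HF replicate 7 and 129S6 HF replicates 12 and 13, the 3 fat arrays with a gap above 5. H2-D1 on 101886_f_at was also low there, at 8.14 in B6 HF replicate 7 against 11.98 to 12.37 in the other 3 of the group, while H2-D1 on 97540_f_at was not, at 12.21. These 2 sets of H2-D1 thus disagreed on these arrays, and the part of the gap in the low values was not tested. The remaining H2-D1 set, 97541_f_at, averaged 8.54 (8.06 to 9.28) in B6 HF fat and 7.59 (7.35 to 7.78) in B6 LF fat. It averaged 8.89 (8.58 to 9.21) in 129S6 HF fat and 7.95 (7.83 to 8.08) in 129S6 LF fat. The diets did not overlap on this set in either strain, but neither difference was called.

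Without the 6 arrays of the series with a gap above 3, class II genes and H2-K1 read higher on the HF diet in B6 fat. This choice was added after the data were seen and left 129S6 HF fat with 1 array, assumed to vary like the other groups. Cd74 was then 0.65 ± 0.12 higher (adjusted p = 0.0231), H2-Eb1 0.82 ± 0.15 (adjusted p = 0.0225), H2-Ab1 0.83 ± 0.17 (adjusted p = 0.0313) and H2-K1 93120_f_at 0.66 ± 0.11 (adjusted p = 0.0163). H2-Aa was 0.57 higher and did not pass (adjusted p = 0.135). In the planned fit with the gap as a covariate, which keeps all arrays, H2-K1 93120_f_at alone was called (0.59, adjusted p = 0.048), with Cd74 at 0.69 (adjusted p = 0.557), H2-Eb1 at 0.89 (adjusted p = 0.314) and H2-Ab1 at 0.82 (adjusted p = 0.23). The macrophage list averaged 7.05 to 7.69 in B6 HF fat and 7.03 to 7.40 in B6 LF fat, and 6.92 to 7.36 in 129S6 HF fat and 6.53 to 6.81 in 129S6 LF fat.

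Between strains in fat, no member passed. On the LF diet 0 of the 14 were called (0.849% of all probe sets) and none had an unadjusted p under 0.05 (924 of all 10833). H2-Aa read 11.15, 10.90, 11.25 and 10.61 in B6 LF fat, against 10.31, 9.97 and 9.85 in 129S6 LF fat. On the HF diet 0 were called (0.434%) and 3 had an unadjusted p under 0.05 (944 of all 10833), with H2-Ab1 0.93 ± 0.28 higher in B6 (adjusted p = 0.285). Without the arrays of wide gap, B6 LF fat was higher than 129S6 LF fat by 0.93 ± 0.17 for H2-Aa (adjusted p = 0.00625), 0.68 for H2-Eb1 (adjusted p = 0.0193) and 0.65 for Cd74 (adjusted p = 0.00739). All of those LF arrays entered both fits, and what changed was the spread estimated from the HF arrays. On the HF diet, where 129S6 fat was then left with 1 array, Cd74 was 1.01 higher in B6. All B6 fat arrays were numbered in 1 run and all 129S6 fat arrays but LF replicate 9 in another, so that strain and run can hardly be told apart. With run as a block over all fat arrays, H2-Aa on the LF diet was 0.66 ± 1.05 higher in B6 (adjusted p = 1).

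In muscle, class II transcripts and 1 H2-D1 set were lower in B6 HF mice than in B6 LF mice. Cd74 read 7.13, 7.19, 6.92 and 7.24 in B6 HF muscle, against 10.03, 9.41 and 8.88 in B6 LF muscle. It read 8.90, 9.06, 8.54 and 9.21 in 129S6 HF muscle, against 6.81, 9.71, 9.24 and 9.37 in 129S6 LF muscle, where replicate 9 gave the low value. Cd74 fell by 2.32 ± 0.51 on the HF diet in B6 muscle (adjusted p = 0.0122). H2-Aa read 7.14, 7.08, 6.70 and 7.31 in B6 HF muscle, against 8.54, 8.60 and 8.20 in B6 LF muscle, and fell by 1.39 ± 0.29 (adjusted p = 0.0108). H2-Eb1 fell by 0.57 ± 0.15 (adjusted p = 0.02), H2-Ab1 fell by 0.40 ± 0.13 (adjusted p = 0.0394) and H2-D1 on 101886_f_at fell by 1.85 ± 0.50 (adjusted p = 0.0218). Against these, H2-D1 on 97541_f_at rose by 0.92 ± 0.30 (adjusted p = 0.0395) and H2-M3 rose by 0.37 and 0.51 on its sets (adjusted p = 0.0221 and 0.0249). Sets of H2-D1 therefore moved in opposite directions on the same arrays.

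In all, 3 of the 14 rose and 5 fell for diet in B6 muscle (26.0% of all probe sets were called), with a median of -0.56 against 0.18 over all probe sets. Between the strains on the HF diet, 2 were higher and 5 lower in B6 muscle (28.3%). B6 minus 129S6 was -1.81 ± 0.47 for Cd74 (adjusted p = 0.0163) and -1.03 ± 0.27 for H2-Aa (adjusted p = 0.0171), in a comparison that shares the B6 HF arrays with the diet comparison. These B6 HF arrays are the ones of narrow spread. Their Gapdh gap was 1.19 to 3.36, against 0.35 to 0.81 in B6 LF muscle, without overlap. With that gap as a covariate the diet calls of H2-D1 101886_f_at (-1.72, adjusted p = 0.0506), H2-D1 97541_f_at (0.56, adjusted p = 0.189) and H2-Ab1 (-0.41, adjusted p = 0.0677) were lost. With the array spread as a covariate, 0 of the 14 were called in either comparison and the Cd74 diet difference was -0.62. Of 25 macrophage sets 3 rose and 5 fell for diet in B6 muscle. Those that fell included Lyz2 (-2.26 ± 0.66) and the complement gene C1qb (-1.84 ± 0.41). Those that rose were sets of Csf1r (0.82), Cd68 (0.47) and Fcgr3 (0.41). The macrophage list averaged 5.93 to 6.10 in B6 HF muscle and 6.10 to 6.56 in B6 LF muscle. Of 25 B cell sets 1 rose and 2 fell, all of them sets of the immunoglobulin heavy chain Ighm, with -2.25 ± 0.32 on the set that moved most. The dendritic cell list averaged 5.47 to 5.79 in B6 HF muscle, above the 5.16 to 5.34 of B6 LF muscle. The part of these cells in the class II values was not tested. Array spread moved with the group in B6 muscle and cannot be told apart from diet there. Without 129S6 LF replicate 9, 12 were called in both comparisons, while without B6 LF replicate 13 none was called for diet.

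No member passed in the other muscle comparisons. For diet in 129S6 muscle 0 of the 14 were called (0% of all probe sets), the smallest adjusted p was 0.991 and none had an unadjusted p under 0.05. Between strains on the LF diet 0 were called (0.231%) and 1 had an unadjusted p under 0.05 (706 of all 10833). The difference of the diet effects between strains gave 0 calls (2.93%), with 11 of the 14 at an unadjusted p under 0.05 (3773 of all 10833) and H2-Aa nearest the threshold (-1.47 ± 0.40, adjusted p = 0.0549). It gave 2 without 129S6 LF replicate 9, H2-Aa (-1.12, adjusted p = 0.00755) and Cd74 (-1.81, adjusted p = 0.00311). Over all 10833 probe sets its calls ran from 0 to 956 as single arrays were left out. H2-K1 (93120_f_at) read 9.66, 8.11, 7.96 and 9.74 in B6 HF muscle, against 10.46, 9.71 and 9.50 in B6 LF muscle, with overlap. It read 10.37, 9.91, 10.22 and 10.37 in 129S6 HF muscle, against 7.58 in 129S6 LF muscle replicate 9 and at least 9.68 in the other 3 of that group. B2m, which sits in the same molecule, read 10.31, 10.34, 9.42 and 10.05 in B6 HF muscle, against 10.94, 10.55 and 10.24 in B6 LF muscle, and did not pass.

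**Figure D4:**
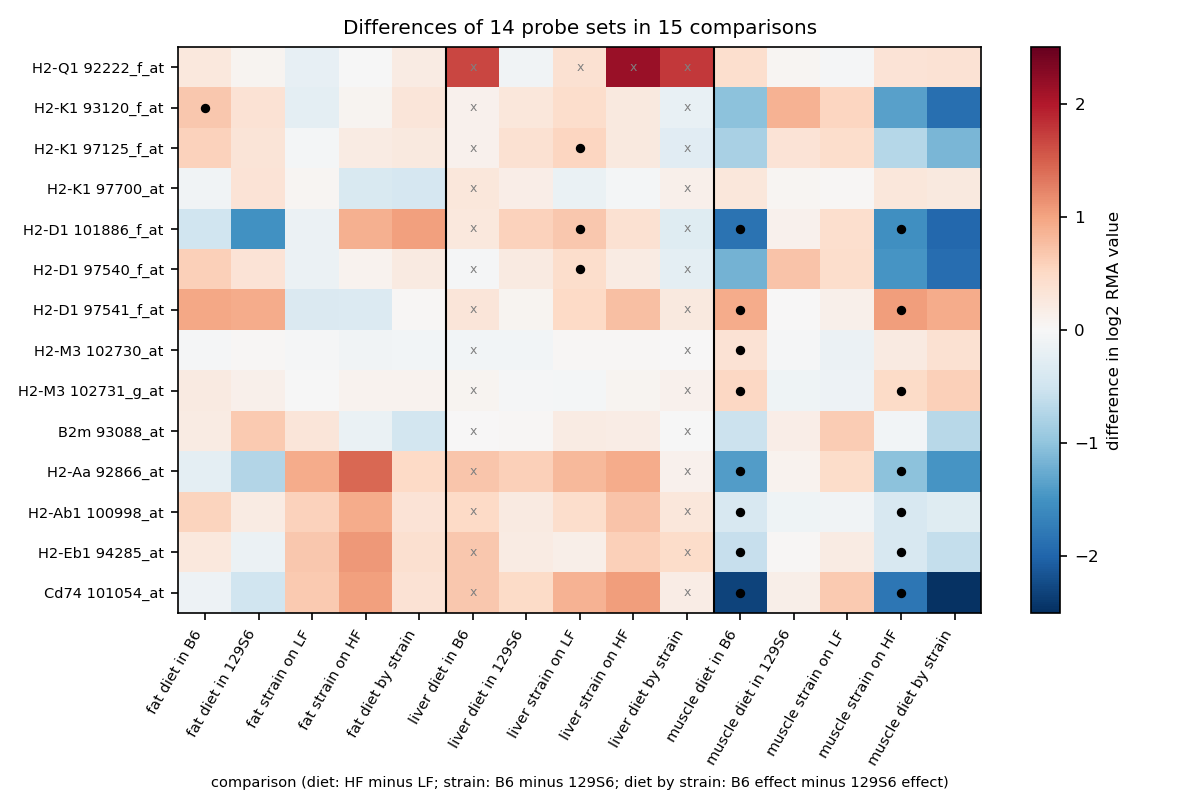
Differences in log2 value for the 14 probe sets (rows) in the 15 comparisons within a tissue (columns), coloured from lower to higher with the colour scale clipped at 2.5 on either side. A dot marks an adjusted p under 0.05 and a cross a value given without a test. Most dots lie in the muscle columns for diet in B6, with 3 higher and 5 lower, and for strain on the HF diet, with 2 higher and 5 lower.

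**Figure D5:**
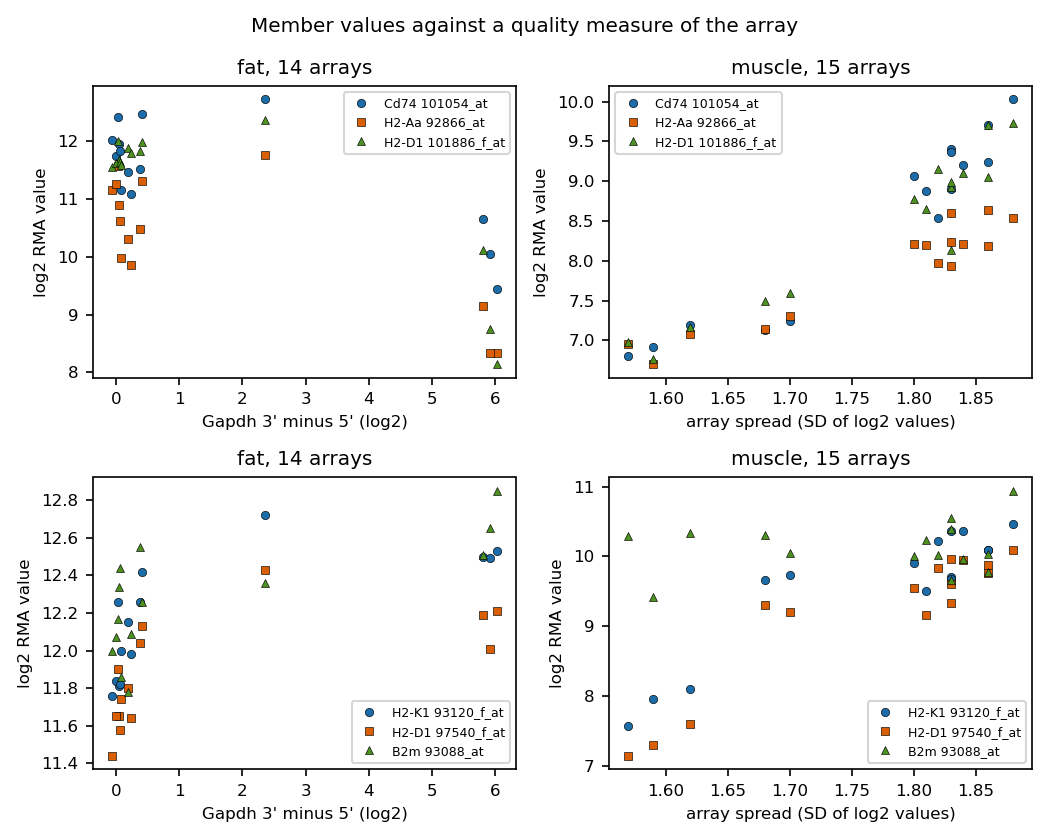
Log2 values of Cd74, H2-Aa, H2-D1 (101886_f_at and 97540_f_at), H2-K1 (93120_f_at) and B2m against the Gapdh 3′ to 5′ gap in fat and against the SD of values over the array in muscle, 1 point per array. The fat arrays with a gap above 5 hold the lowest Cd74 values of their groups, and the muscle arrays of narrow spread hold the lowest Cd74 values of muscle.

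The sets shared with H2-T23, whose product Qa-1 is a ligand of inhibitory receptors on natural killer cells, had group means without a test. The set of H2-T23 and the pseudogene H2-T-ps (98472_at) averaged 6.88 in B6 HF fat and 6.25 in B6 LF fat, 6.30 in 129S6 HF fat and 6.12 in 129S6 LF fat. It averaged 7.38 in livers of B6 mice on either diet, 7.13 in 129S6 HF livers and 6.91 in 129S6 LF livers, and 4.98 to 5.37 in the muscle groups. A set of 10 symbols, H2-T23, H2-K1 and H2-D1 among them (102161_f_at), averaged 9.9 in B6 HF fat and 10.54 in B6 LF fat. It averaged 8.97 in 129S6 HF fat and 10.43 in 129S6 LF fat, so that the 2 sets went opposite ways with diet in fat. Its means were 10.54 to 11.09 in the liver groups and 7.09 to 8.44 in the muscle groups. Muscle was thus lowest on both sets, as for H2-K1 and H2-D1.

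Genes that serve class I loading were read from a list of 10 genes on 15 probe sets. Against muscle, 11 were higher and 2 lower in fat (70.8% of all probe sets were called) and 9 were higher and 1 lower in liver, a share like the 66.5% of all probe sets. Tapbp (tapasin, which holds the heavy chain at TAP) was 2.64 higher in fat than in muscle and Psmb8 (an immunoproteasome subunit) 1.67 higher. Pdia3, a chaperone of the loading complex, was 3.16 higher in liver than in muscle. In B6 muscle, on the arrays of narrow spread, the list split, with 3 higher and 3 lower on the HF diet (26.0% of all probe sets): Psmb8 fell by 1.03 ± 0.22 (adjusted p = 0.0117), while the sets of Psme1, a proteasome activator, gave -1.91 and 0.82. A list of other genes named H2 and of class I-like genes, not all of them class I genes, held 16 genes on 19 sets. H2-Q10, a secreted class I heavy chain of the liver, gave -5.35 ± 0.13 for fat minus liver and was 5.96 ± 0.13 higher in liver than in muscle.

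The class II pathway list held 14 genes on 15 sets. In 129S6 fat, where 2 of the 3 HF arrays had a Gapdh gap above 5, 3 rose on the HF diet and none fell (0.572% of all probe sets): Ctss (cathepsin S, which trims the invariant chain) rose by 2.47 ± 0.39 (adjusted p = 0.0127), Lgmn (legumain, an endosomal protease) by 1.41 (adjusted p = 0.0139) and Ctsl (cathepsin L) by 1.27 (adjusted p = 0.0306). In the same comparison 2 of 25 macrophage sets rose, Mpeg1 (2.01) and Tyrobp (2.36), and none fell. In B6 fat Lgmn alone of the list rose, by 1.14 ± 0.20 (adjusted p = 0.0369), and on the LF diet Ctss was 1.94 higher in B6 than in 129S6 fat (adjusted p = 0.0218). Against liver, 6 of the 15 were higher and 3 lower in fat, a share near the 55.5% of all probe sets, with Ctss 1.97, H2-DMb1 (which with H2-DMa forms a peptide editor) 0.91 higher and H2-DMa 0.67 higher on 1 of its sets. In B6 muscle Ifi30, a thiol reductase of endosomes, fell by 0.80 on the HF diet and H2-Oa rose by 0.59.

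Interferons are known inducers of both classes, and some genes that respond to them were higher in B6 than in 129S6 livers. On the HF diet 5 of the 22 sets of interferon-induced genes were higher in B6 livers and none lower (4.24% of all probe sets), Ifit1 by 0.77 ± 0.12 (adjusted p = 0.000954) and Ifi204 by 1.05 ± 0.19 (adjusted p = 0.0037) among them. On the LF diet 2 of the 22 were higher, Ifi35 (0.49) and Rsad2 (0.34), a share below the 12.0% of all probe sets. Of the 12 sets of regulators, Irf7, a transcription factor of the interferon response, was 0.84 ± 0.17 higher on the HF diet (adjusted p = 0.00727) and 0.71 ± 0.17 higher on the LF diet (adjusted p = 0.0116), and Irf9 was 0.45 higher on HF and 0.43 higher on LF. The macrophage list had 2 of 25 sets higher in B6 livers on the LF diet, C1qc (0.91) and Tyrobp (0.97), a share below the 12.0% of all probe sets. On the HF diet 1 of the 25 was higher, Mpeg1 (1.23), a share near the 4.24% of all probe sets.

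Some members followed one another closely. Over the 45 arrays, with each tissue's mean subtracted, H2-K1 93120_f_at and H2-D1 97540_f_at had a Pearson correlation of 0.99, H2-Aa and Cd74 of 0.93, H2-Aa and H2-Eb1 of 0.92 and H2-Ab1 and H2-Eb1 of 0.89. The pattern did not always follow class or gene: H2-D1 101886_f_at went with Cd74 (0.86) and against H2-D1 97541_f_at (-0.46), and B2m had 0.32 with H2-K1 93120_f_at. The genes outside the set most like H2-K1 and H2-D1 were headed by H2-K2 (0.95 with each), a near copy that can share their probes. Those most like H2-Ab1 included Psmb9 (0.89) and Psmb10 (0.85), subunits of the immunoproteasome, and H2-DMa (0.83), which was also most like H2-Eb1 (0.91). C1qc, a complement component of macrophages, was most like H2-Aa (0.89), and Psap (0.88) and C1qb (0.88) most like Cd74. B2m was most like H2az1 (0.81), a histone variant, and H2-M3 most like Smarcd2 (0.81). These correlations, over the 45 arrays, describe arrays that share RNA quality, array spread and run, and carry no test.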

How the data were processed

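RNA pooled from 2 to 3 mice was labelled and hybridised to Affymetrix arrays, per the labels' protocols. The authors deposited log2 values for 12488 probe sets on 45 arrays, made by RMA per the submitters' processing notes; no version is named there. RMA quantile normalization gives arrays a like distribution, can compress dim signals, and sums probes that related genes may share.

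Probe sets were named through the platform annotation. After 66 controls were left out, 10833 had 1 symbol (10817 matched by Entrez ID), 396 had several and 1193 none. With R 4.3.3, limma 3.58.1 fitted 1 mean per group within each tissue (15 comparisons) and over all 12 groups (3 tissue comparisons), two-sided, with Benjamini-Hochberg adjustment over the 10833 and a threshold of 0.05. Errors of differences are SE. Fits were tested on simulated data first. Figures were drawn with Python 3.11.15 and matplotlib 3.10.9.

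The members and gene lists were chosen with earlier results of these data known. All member probe sets are reported; of other lists, up to 4 genes per comparison past the threshold with the smallest adjusted p; and, for likeness, among the 5 genes with the highest Pearson r. There were 10 planned kinds of alternative and 3 added after the data were seen. Array runs were read from the array numbers in the labels. Levels of different probe sets were not compared. Same-numbered arrays of 2 tissues were checked for pairing: correlations of their deviations from group means ran from -0.4 to 0.28 over 12 pairs of arrays.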

Additional observations from a re-analysis of the deposited data

Results flagged for a closer look

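In 15 of 126 groups of 4 arrays 1 array stood far from the other 3, by a rule that chance would meet in about 1 in 20. The 126 are probe sets read on the same arrays, and many of these sets move together. No excess over chance is therefore read from the count. The fat array B6 HF replicate 7 was low for H2-D1 101886_f_at (8.14, others 11.98 to 12.37), H2-Aa (8.33, others 11.31 to 11.76) and Cd74 (9.45, others 12.42 to 12.72), with a Gapdh 3′ to 5′ gap of 6.03. The liver array B6 HF replicate 13 was high for all 4 class II genes: H2-Aa 11.33 (others 8.49 to 8.60), H2-Ab1 10.07 (others 7.82 to 7.96), H2-Eb1 10.43 (others 8.14 to 8.27) and Cd74 12.51 (others 9.75 to 10.01).

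The muscle array 129S6 LF replicate 9 was low for H2-K1 93120_f_at (7.58, others at least 9.68), H2-D1 97540_f_at (7.15, others 9.61 to 9.88), H2-Ab1 (7.59, others 7.79 to 7.82) and Cd74 (6.81, others 9.24 to 9.71), with an array spread of 1.57. Single values stood apart on 4 more arrays. These were H2-K1 97125_f_at in muscle B6 HF replicate 7 (6.14, others 6.82 to 6.92), B2m in muscle 129S6 HF replicate 1 (10.40, others 9.97 to 10.02), H2-D1 101886_f_at in liver 129S6 LF replicate 11 (9.89, others 10.47 to 10.57) and H2-Eb1 in liver 129S6 HF replicate 10 (8.42, others 8.08 to 8.10). The part of RNA quality, array spread or cell makeup in these values was not tested.

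The diet effect on H2-Q1 in liver differed between the strains, by 1.76 in B6 minus 129S6. The gene was chosen with this value known.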

How the results depend on the processing

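No called result changed direction under the alternatives run. Counts of called member probe sets that moved by over 1.5 times are given here, and smaller moves are left out. Calls over all probe sets under these settings are not given beside them, so the counts are not read as results about the members. With 1 probe set per gene there was 1 for diet in B6 liver, 5 for diet in B6 muscle and 7 for liver minus muscle. Quantile normalization gave 1 for diet in B6 liver and 1 for strain on LF in liver, the latter being H2-Q1, from which nothing is read. With only the groups compared, strain in liver gave 2 on LF and 2 on HF, diet gave 4 in B6 muscle and 0 in B6 fat, and strain on LF in fat gave 4. Array spread as a covariate gave 1 (again H2-Q1) and 2 for strain in liver on LF and HF, and 0 for diet in B6 muscle, strain on HF in muscle and diet in B6 fat. With the Gapdh gap as a covariate there were 2 for strain on HF in liver and 4 for diet by strain in muscle. Diet in B6 fat had 0 with an intensity trend and robust prior and 0 with array run as a block. Without the dimmest 1 in 3 probe sets, diet by strain in muscle gave 1. Without the 6 arrays of wide Gapdh gap, a choice made after seeing the data, strain on HF gave 2 in liver, 4 in muscle and 1 in fat, diet in B6 fat 7 and strain on LF in fat 3.

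Leaving out 1 array at a time gave 1 to 2 for diet in B6 liver, 0 to 8 and 1 to 2 for strain on LF and on HF in liver, 0 to 12 for diet in B6 muscle, 3 to 12 for strain on HF in muscle, 0 to 3 for diet by strain in muscle, 0 to 3 and 0 to 2 for diet in B6 and 129S6 fat, and 0 to 5 for strain on HF in fat. It gave 6 to 8, 12 to 13 and 10 to 13 for fat minus liver, fat minus muscle and liver minus muscle. The cause of these moves was not tested. With the replicate number as a block, possible only between tissues, Cd74 was 1.67 ± 0.28 higher in fat than in liver and no call changed; 2 of 12 array pairs had a correlation above 0.1, so the numbers were not taken to pair samples. Precision is limited by the few arrays per group.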
